A study of Mus musculus with 6 samples.

Results

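Glucocorticoid signalling in basal keratinocytes of mouse ear skin was described through 8 genes, given by name and taken by their symbols from the 49671 genes of the expression table. They are the glucocorticoid receptor Nr3c1, the mineralocorticoid receptor Nr3c2, the cortisone- and dehydrocorticosterone-reducing enzyme Hsd11b1, and the hormone-induced genes Tsc22d3, Fkbp5, Sgk1, Zbtb16 and Klf9. All 8 were present, and 7 of them were among the 15413 genes that passed the filter on low values. Hsd11b1 did not pass it.

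RNA was sequenced in 6 libraries, 2 each from intact male, female and castrated male mice of the outbred CD1 stock. Basal cells of the interfollicular epidermis had been sorted as living cells that carried integrin alpha 6 and lacked the bulge marker CD34, after an overnight cold digestion of ear skin with trypsin. Each library held 100000 cells from 2 littermates. A library is thus a pool of 2 mice, and the labels do not say whether any libraries share a litter. No genotype, age, time since castration, hour of sampling or hormone level is given in the labels, and none of the groups is described as having received a drug or a hormone.

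The hormone corticosterone, the main glucocorticoid of mice, crosses the cell membrane and binds the receptor encoded by Nr3c1, which is held in the cytoplasm by heat shock proteins and their co-chaperones. The loaded receptor enters the nucleus and binds a palindromic DNA element that the mineralocorticoid receptor also recognises. It induces genes next to such elements and lowers the transcription of inflammatory genes. In skin, glucocorticoids restrain inflammation and keratinocyte proliferation, and both receptors are known to act in keratinocytes. Hsd11b1 regenerates active hormone inside the cell and Hsd11b2 inactivates it.

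The element is shown in the promoters of the genes themselves, since the induced genes are in the set because of their response to the receptor. Promoter windows of 300 bases, from 250 before to 50 after a RefSeq transcription start (GRCm38.p6), were available for 6 of the 8 genes, in 13 windows. The full palindrome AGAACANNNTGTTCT, which reads the same on both strands, was found in 3 of 32851 windows of all genes (0.00913%). Sgk1 has 1 of these 3 windows, at chr10:21993640-21993939 on the plus strand, with the match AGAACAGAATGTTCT 189 bases before the start. Capitals mark the palindrome.

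Sgk1: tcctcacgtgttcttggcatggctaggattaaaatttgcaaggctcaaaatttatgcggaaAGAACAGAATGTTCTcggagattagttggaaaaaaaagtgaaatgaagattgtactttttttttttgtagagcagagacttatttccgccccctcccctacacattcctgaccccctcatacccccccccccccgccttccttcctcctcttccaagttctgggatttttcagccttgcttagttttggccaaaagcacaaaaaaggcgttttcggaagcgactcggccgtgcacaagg

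The half-site AGAACA, or TGTTCT on the other strand, which is contained in the palindrome, was far more common and lay in 19.0% of all windows. It was in 4 of the 13 windows of these genes, 3 of Sgk1 and 1 of Tsc22d3. The Tsc22d3 window at chrX:140600473-140600772, on the minus strand, has it 185 bases before the start, shown in capitals.

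Tsc22d3: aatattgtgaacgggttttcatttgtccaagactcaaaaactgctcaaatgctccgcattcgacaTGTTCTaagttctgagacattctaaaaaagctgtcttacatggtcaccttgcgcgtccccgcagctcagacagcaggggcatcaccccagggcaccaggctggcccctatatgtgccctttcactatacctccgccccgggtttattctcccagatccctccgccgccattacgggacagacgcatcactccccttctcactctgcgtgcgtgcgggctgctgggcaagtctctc

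A looser palindrome, GNACANNNTGTNC, was in 156 windows (0.475%), and among the 13 it was again found in the Sgk1 window above, where it overlaps the full palindrome. The E-box CACGTG, a site of clock and other basic helix-loop-helix factors, lay in 7.15% of all windows and in 2 of the 13, the same Sgk1 window and the Fkbp5 window at chr17:28486100-28486399. A match of letters is no evidence of binding, and the enhancers through which several of these genes are known to respond lie outside such windows. The reads were counted per gene and do not tell the starts of Sgk1 or Tsc22d3 apart.

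Levels are given as CPM, a gene's reads relative to the reads of its library, after scaling between libraries. The libraries held 8412487 to 9648154 reads. A count of 0 in a library allows up to 3 reads, worth 0.307 to 0.385 CPM, and this limit covers counting error only. To compare levels between genes, CPM was divided by the summed exon length in kilobases. By this measure Tsc22d3 (106 CPM per kilobase, mean of the 6 libraries) and Sgk1 (95.2) stood highest, and their ranges over the libraries overlapped, with Tsc22d3 above Sgk1 in 4 of 6. Zbtb16 (19.4) and Nr3c1 (15.9) followed and also overlapped. Klf9 (5.50) and Fkbp5 (2.12) came next, with overlapping ranges although Klf9 was the higher in 6 of 6 libraries. Nr3c2 (0.578) and Hsd11b1 (0.213) were at the bottom and overlapped. Between these pairs the ranges met in 1 case, where Zbtb16 in its lowest library (6.26) fell under Klf9 in its highest (7.10). The spread across libraries was widest in Nr3c2 among the tested genes, with 7.11 times as much in the highest library as in the lowest, and narrowest in Nr3c1 with 2.10 times.

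**Figure D1:**
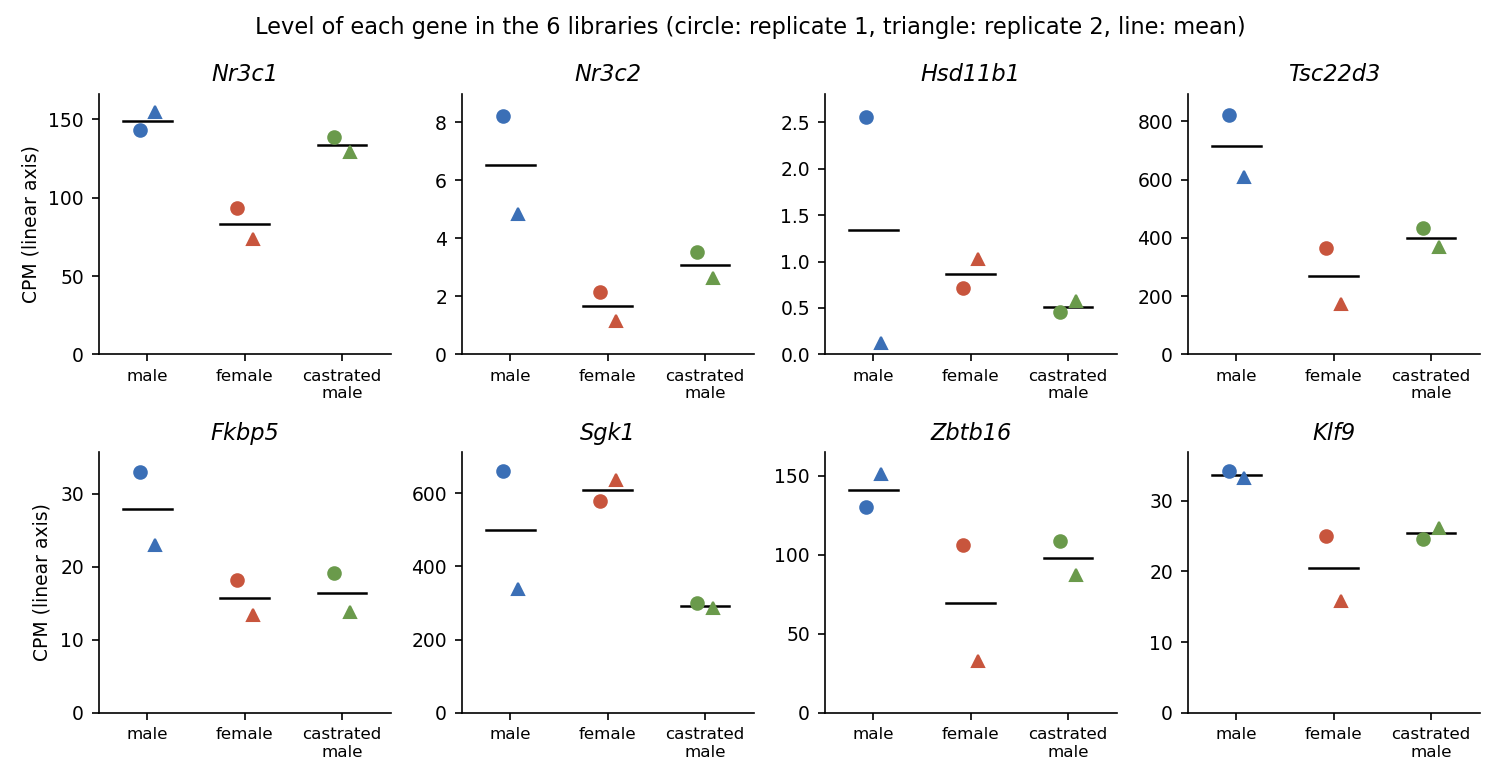
CPM of the 8 genes (vertical axis, linear and starting at 0) in intact males, females and castrated males, with a circle for replicate 1, a triangle for replicate 2 and a line at the mean of the 2 libraries. A male library is the highest for each of the 7 tested genes, the female mean is the lowest of the 3 groups for Nr3c1, Nr3c2, Tsc22d3, Fkbp5, Zbtb16 and Klf9, and the male libraries of Sgk1 lie at 660 and 340 CPM on either side of the female ones.

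The first question was how the sexes differ. Both receptor genes and Tsc22d3 fell in females against intact males. Fkbp5, Zbtb16 and Klf9 were also lower in both female libraries than in both male libraries, but did not pass the test. Sgk1 did not share this pattern. In bulk RNA fewer cells of a type and less RNA per cell cannot be told apart, for these and all following values. Tests were made in limma over all genes tested, with Benjamini-Hochberg adjusted p-values, and called means an adjusted p of less than 0.05. Fold changes are differences of log2(CPM + 0.5) with their standard error.

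Nr3c1 (ENSMUSG00000024431, GRCm38 chr18:39410545-39519421, minus strand) encodes the glucocorticoid receptor. Its level was 143 and 155 CPM in the male libraries, 93.2 and 73.5 in the female libraries and 139 and 129 in the castrated male libraries. The females were low and did not overlap with either male group, while the lower male value stood close above the castrated ones. The log2 fold change of females against males was -0.84 ± 0.14 (n = 2 against 2, limma adjusted p = 0.0180), a level 1.79-fold lower.

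Nr3c2 (ENSMUSG00000031618, chr8:76899442-77245012, plus strand) encodes the mineralocorticoid receptor, which binds glucocorticoids as tightly as aldosterone. It gave 8.20 and 4.82 CPM in males, 2.15 and 1.15 in females and, in castrated males, 3.53 and 2.62. These levels rest on few reads, with 77 and 41 in the intact males, 21 and 9 in the females and 31 and 23 in the castrated males. The 3 groups did not overlap, with males highest and females lowest. Females against males differed by -1.70 ± 0.37 (log2, n = 2 against 2, limma adjusted p = 0.0338), which was 3.25-fold on this scale. The gene Gm10649, on the opposite strand, overlaps exons of Nr3c2 and had 4 reads in all libraries together.

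Per exon length, Nr3c1 exceeded Nr3c2 in every library. The ratio was 14.7 and 27.0 in males, 36.6 and 53.6 in females and, in castrated males, 33.1 and 41.6. It was lowest in the male libraries, and the female and castrated values overlapped. This ratio was not tested.

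Hsd11b1 (ENSMUSG00000016194, chr1:193221634-193264075, minus strand) was near the limit of detection, with 24 and 1 reads for intact males, 7 and 8 for females and 4 and 5 for castrated males. The male libraries alone spanned 2.56 and 0.118 CPM and enclosed all the others, so no difference from intact males could be read. The castrated libraries (0.455 and 0.569 CPM) lay below the female ones (0.716 and 1.03), on these few reads. The gene was not tested in any comparison. The gene of the opposing enzyme, Hsd11b2, had at most 3 reads in any library.

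Tsc22d3 (ENSMUSG00000031431, chrX:140539528-140600659, minus strand) encodes GILZ, a leucine zipper protein that binds NF-kappa-B and AP-1 and carries part of the anti-inflammatory response to glucocorticoids. It was at 821 and 610 CPM in males, 366 and 174 in females and, in castrated males, 434 and 367. Every male library exceeded every other library, and the higher female value lay just under the lower castrated one. The log2 fold change of females against males was -1.49 ± 0.30 (n = 2 against 2, limma adjusted p = 0.0288), or 2.80-fold lower.

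Fkbp5 (ENSMUSG00000024222, chr17:28399094-28517527, minus strand) encodes FKBP51, a co-chaperone that lowers the affinity of the receptor for its hormone and is induced by it, closing a feedback loop. Its levels were 33.0 and 22.9 CPM in males, 18.2 and 13.3 in females and, in castrated males, 19.1 and 13.8. Both other groups lay below the males and overlapped with each other. Against males, females differed by -0.80 ± 0.25 (log2, limma adjusted p = 0.0974, n = 2 against 2), which missed the threshold.

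Zbtb16 (ENSMUSG00000066687, chr9:48654297-48836222, minus strand) encodes the zinc finger repressor PLZF. It was at 130 and 151 CPM in males, 106 and 33.1 in females and, in castrated males, 109 and 87.2. The female libraries stood far apart from each other, and 1 of them was within the castrated range. The log2 difference of females against males was -1.24 ± 0.42 (limma adjusted p = 0.116, n = 2 against 2).

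Klf9 (ENSMUSG00000033863, chr19:23141226-23168134, plus strand) encodes a Krüppel-like factor that restrains keratinocyte proliferation and is induced by glucocorticoids. Males gave 34.2 and 33.1 CPM, females 25.1 and 15.8, and castrated males 24.6 and 26.2. The male libraries nearly coincided above all others. The log2 difference of females against males was -0.74 ± 0.22 (limma adjusted p = 0.0772, n = 2 against 2).

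Sgk1 (ENSMUSG00000019970, chr10:21882184-21999903, plus strand) encodes a kinase that is induced by both receptors and acts on ion channels and FoxO factors. Its levels were 660 and 340 CPM in males, 578 and 637 in females and, in castrated males, 299 and 286. The male libraries lay on both sides of the female ones, so the groups overlapped, and the log2 difference of females against males was 0.36 ± 0.26 (95% interval -0.22 to 0.94, limma adjusted p = 0.423). Its sign rested on 1 male library: it was -0.15 without male replicate 2 and 0.84 without male replicate 1, where Sgk1 passed the test as higher in females (limma adjusted p = 0.0255).

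Of the 7 tested genes, 3 were called lower in females and 0 higher, where 2.39% of all genes tested were called lower and 6.10% were called in either direction. In 6 of 7 both female libraries lay below both male libraries, which was so for 27.2% of all genes tested. The median log2 fold change of the 7 was -0.84, beside -0.01 over all genes tested. Without female replicate 2, none of the 7 was called: Nr3c1 came to -0.67 (limma adjusted p = 0.113), Nr3c2 to -1.37 (0.261) and Tsc22d3 to -0.95 (0.135), and 49 genes were called in all in place of 940. That library had the lowest value of the 6 for 6 of the 7 genes, and for 28.4% of all genes tested. Calls were also lost without male replicate 1 for Nr3c2 (-1.34, adjusted p = 0.111) and Tsc22d3 (-1.26, 0.0864), without male replicate 2 for Nr3c1 (-0.81, 0.0523), and for all 3 when either castrated male library was left out, although the log2 fold changes stayed between -0.86 and -0.83 for Nr3c1, -1.72 and -1.69 for Nr3c2, and -1.51 and -1.48 for Tsc22d3.

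**Figure D2:**
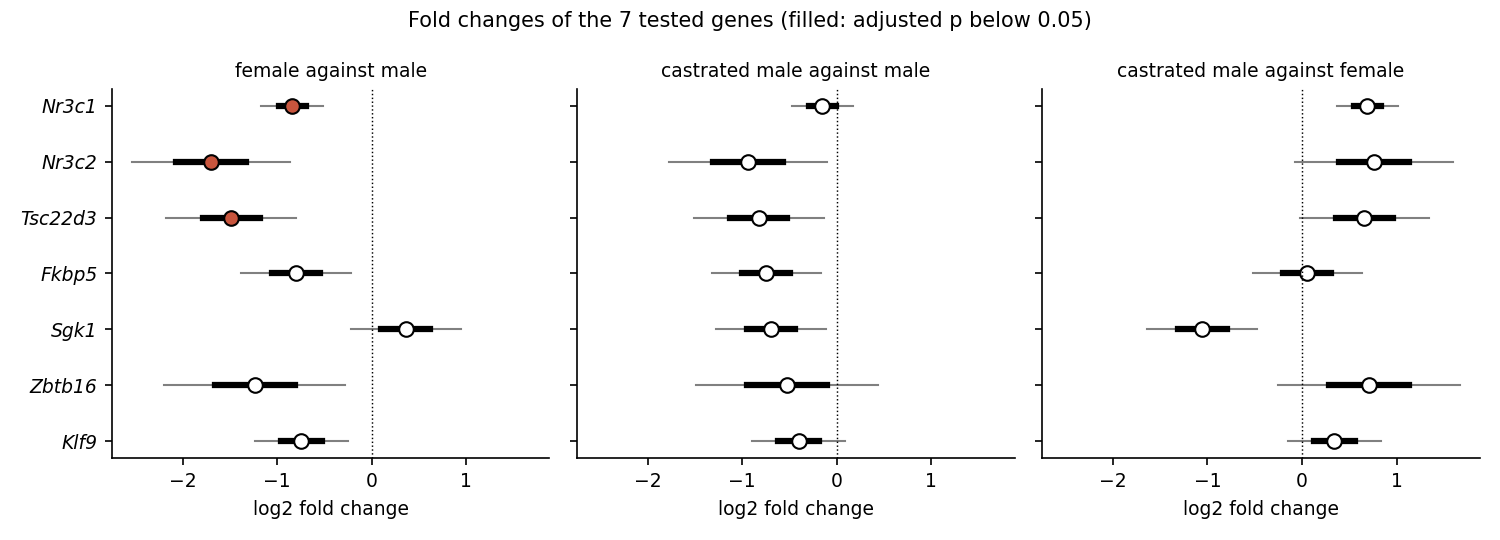
Log2 fold change (horizontal axis) of the 7 tested genes in the 3 comparisons; the point is the estimate, the thick bar its standard error, the thin line its 95% interval, and a filled point has an adjusted p below 0.05. Nr3c1, Nr3c2 and Tsc22d3 are filled in the comparison of females with males, no gene is filled in the other comparisons, and Sgk1 lies at -1.05 in castrated males against females.

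The second question was how castrated males differ from intact males. All 7 tested genes were lower in both castrated libraries than in both male libraries, which was so for 18.2% of all genes tested. None of the 7 passed the test in limma, also with voom weights, and 6 of 15413 genes (0.0389%) did so in this comparison. The estimates were -0.94 ± 0.37 for Nr3c2, -0.83 ± 0.30 for Tsc22d3, -0.74 ± 0.25 for Fkbp5 and -0.69 ± 0.26 for Sgk1 (log2, n = 2 against 2), with limma adjusted p-values from 0.752 to 0.794. These 4 genes had an unadjusted p below 0.05, against 2.83% of all genes tested that were lower at that level. Zbtb16 gave -0.53 ± 0.42, Klf9 -0.40 ± 0.22 and Nr3c1 -0.15 ± 0.14. The median of the 7 was -0.69, beside 0.00 over all genes tested.

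The receptor Nr3c1 was the member nearest to no difference after castration. Its 95% interval ran from -0.48 to 0.17 (log2), and its higher castrated value of 139 CPM lay close under the lower male value of 143. The intervals of Nr3c2 (-1.78 to -0.11), Tsc22d3 (-1.51 to -0.14), Fkbp5 (-1.32 to -0.17) and Sgk1 (-1.27 to -0.11) lay below 0 before any adjustment for the number of genes. For Sgk1 the estimate again turned on the male libraries. It was -1.18 and called (limma adjusted p = 0.016) without male replicate 2, and -0.21 (adjusted p = 1) without male replicate 1. Both comparisons with intact males use the same 2 male libraries, which held the highest value of all 6 for 7 of 7 genes and for 36.1% of all genes tested, so the shared direction of the comparisons was not counted as a result.

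The third comparison set castrated males against females, which share no library. None of the 7 genes was called in limma, also with voom weights, beside 1.73% of all genes tested. At an unadjusted p below 0.05 in limma, 1 was higher and 1 lower, beside 3332 of all 15413 genes tested in either direction. Nr3c1 was higher in castrated males by 0.69 ± 0.14 (log2, n = 2 against 2, limma adjusted p = 0.0526) and Sgk1 lower by -1.05 ± 0.26 (adjusted p = 0.0786). Sgk1 was 286 to 299 CPM in castrated males and 578 to 637 in females, and the male SD of 226 CPM, beside 9.77 and 41.7 in these groups, entered the shared estimate of the spread. In a fit of the castrated males and females alone, Sgk1 (limma adjusted p = 0.00561) and Nr3c1 (adjusted p = 0.0442) were both called. That fit also called more of all genes tested than the main one, as given below. Over the 14 alternatives, Sgk1 was called in 3 and Nr3c1 in 4. Both castrated libraries lay above both female libraries in 3 of 7 genes, Nr3c1, Nr3c2 and Tsc22d3, and in 29.4% of all genes tested. Nr3c2 differed by 0.76 ± 0.37 (adjusted p = 0.269) and Tsc22d3 by 0.66 ± 0.30 (adjusted p = 0.245). Fkbp5 gave 0.06 with a 95% interval of -0.52 to 0.63, Klf9 0.34 (-0.15 to 0.84) and Zbtb16 0.71 (-0.25 to 1.67), all with overlapping groups. The median of the 7 was 0.66, beside 0.01 over all genes tested.

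**Figure D3:**
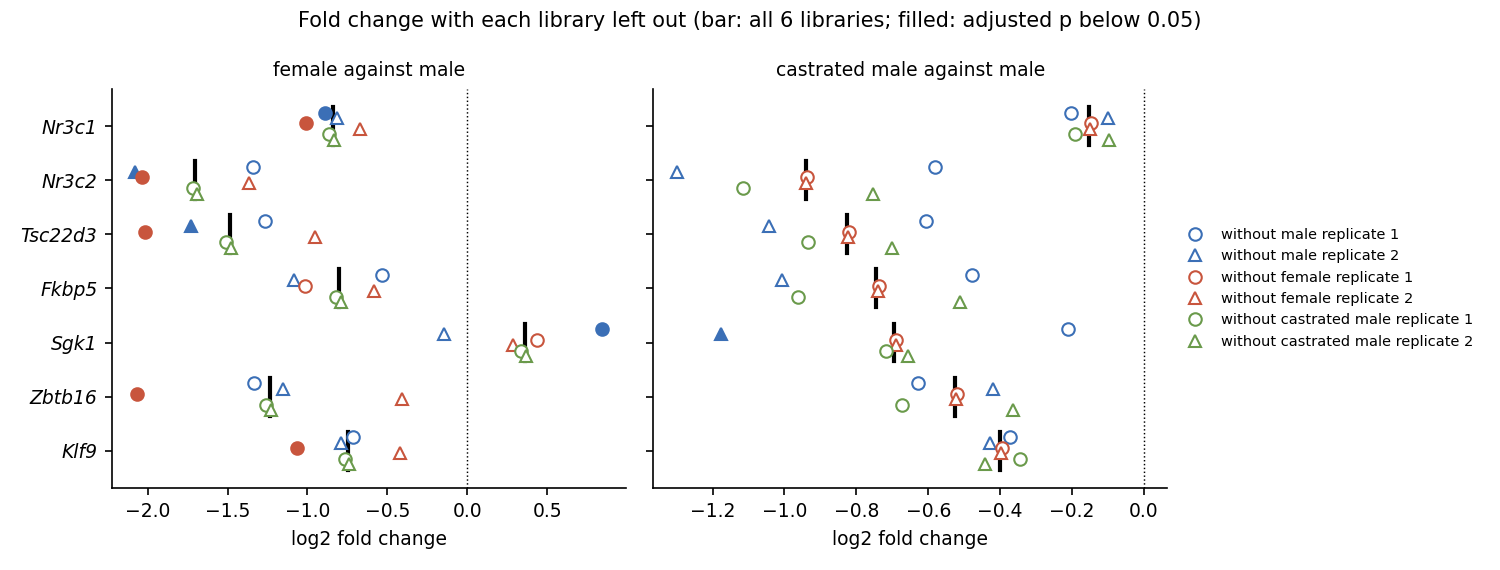
Log2 fold change (horizontal axis) of the 7 tested genes with all 6 libraries (black bar) and with each library left out in turn (symbols, blue for a male, red for a female and green for a castrated male library; filled where the adjusted p is below 0.05). For females against males, leaving out female replicate 2 brings Tsc22d3 to -0.95 and leaving out female replicate 1 brings it to -2.02, while Sgk1 moves between -0.15 and 0.84 with the male library left out.

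Across the 6 libraries, log2 levels of Tsc22d3 ran closely with those of Nr3c2 (Pearson r = 0.976), Klf9 (0.972) and Zbtb16 (0.917), and those of Sgk1 with none of the others, from -0.579 with Nr3c1 to 0.256 with Fkbp5. These values describe 6 libraries in 3 groups that share their group differences, and carry no test. Among 10159 other genes averaging 5 CPM or more (10160 for Nr3c2), the genes most like Nr3c1 were Iqce and Tmem53 (r = 0.997 for both). Those most like Nr3c2 were Dpm1 (0.997) and Xab2 (0.996). For Tsc22d3 they were Tram2 (0.999) and Atp6v0e2 (0.996), for Fkbp5 Ncoa7 (0.996) and Sdc4 (0.987), and for Sgk1 Clca1 (0.997) and Fubp3 (0.994). Zbtb16 was nearest to Fgd4 and Nynrin (0.994 for both), and Klf9 to Sntb1 (0.997) and Ccnt1 (0.993). These 14 genes were picked as the highest values among all candidates, so their r describes the choice.

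Other genes of the pathway were taken from lists. Of 36 further genes that glucocorticoids induce in various tissues, 29 were tested. In females against males Per1, Arrdc3 and Ddit4 fell, Zfp36 rose, and 25 did not pass the test. Over all genes tested 2.39% were called lower and 3.70% higher. The median log2 fold change of the 29 was 0.03. Per1, a clock gene with a well-known receptor element, was at 276 and 173 CPM in males, 107 and 88.3 in females and, in castrated males, 163 and 149, with no overlap of the 3 groups (females against males -1.16 ± 0.21, limma adjusted p = 0.0208). Ddit4, an inhibitor of mTORC1, fell by 0.94 on the log2 scale (adjusted p = 0.0376) and Arrdc3, an arrestin family member, by 0.86 (adjusted p = 0.0343). Zfp36, whose product destabilises inflammatory mRNAs, was at 78.5 and 79.1 CPM in males and 122 and 148 in females (0.77 ± 0.17, adjusted p = 0.0340). The 4 calls were lost without female replicate 2, among other libraries, with limma adjusted p-values of 0.179 for Per1, 0.137 for Arrdc3, 0.232 for Ddit4 and 0.253 for Zfp36.

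In castrated against intact males 0 of the 29 induced genes were called in limma, also with voom weights, and the median was -0.25. At an unadjusted p below 0.05, 2 were higher and 6 lower. Of all 15413 genes tested, 914 reached that level in either direction, and 2.83% were lower at it. Against females, castrated males had less Glul, the glutamine synthetase gene, with 169 and 177 CPM in castrated males, 276 and 399 in females, and 362 and 308 in males (castrated males against females -0.94 ± 0.18, limma adjusted p = 0.0420). This call was lost without female replicate 2 (-0.67, adjusted p = 0.236) and without either castrated library (0.231 and 0.355). Glul was the 1 gene of the 29 called in this comparison, beside 1.73% of all genes tested, and with voom weights 0 of the 29 were called. The liver enzymes Tat and Pck1, classic targets of the hormone there, had no reads in any library.

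Of 21 genes that glucocorticoids repress, 16 were tested, and in females against males 6 rose and 1 fell, where 3.70% of all genes tested were called higher in females. The median of the 16 was 1.13, and with voom weights 4 were called higher and 1 lower. The risers were the cyclooxygenase gene Ptgs2, the chemokines Cxcl1 and Ccl20, the adhesion molecule Icam1 and the wound keratins Krt6a and Krt6b. Cxcl1 was at 1.70 and 1.29 CPM in males, 12.3 and 26.4 in females and, in castrated males, 1.14 and 0.911, so the females alone were high. Its log2 fold change in females against males was 3.22 ± 0.38 (limma adjusted p = 0.00536). Ccl20 had the same order, at 3.94 and 2.00 CPM in males, 17.0 and 19.6 in females and, in castrated males, 1.25 and 1.37. Krt6a was at 72.9 and 63.3 CPM in males and 178 and 531 in females, a log2 fold change of 2.17 ± 0.40 (adjusted p = 0.0223) with the female libraries far apart. The gene that fell was Tslp, an epithelial cytokine, from 33.8 and 18.3 CPM in males to 7.67 and 6.28 in females, with 10.4 and 9.22 in castrated males. The keratin genes Krt6a and Krt6b are near-identical copies, and reads could be split between them.

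Ptgs2 rose in females and in castrated males alike. Its levels were 3.09 and 3.17 CPM in intact males, 14.4 and 13.7 in females and, in castrated males, 20.8 and 26.3. The log2 fold change was 2.72 ± 0.21 in castrated against intact males (limma adjusted p = 0.00439) and 2.00 ± 0.21 in females against males (adjusted p = 0.00376). The 2 comparisons share the male libraries. In castrated against intact males the call was lost without castrated male replicate 1 (2.89, adjusted p = 0.139) or replicate 2 (2.56, adjusted p = 0.219), and held with each of the other libraries left out. Ptgs2 was the 1 gene of the 16 called after castration, where the median of the list was -0.20. Against females, castrated males had less Ccl20 (limma adjusted p = 0.00233), Cxcl1 (0.00357), Icam1 (0.0242), Krt6a (0.0333) and Krt6b (0.0450), 5 of the 16 genes beside 1.15% of all genes tested that were called lower, and the median was -0.83. With voom weights, Ccl20 and Cxcl1 were called. None of the 5 was called without castrated male replicate 1, with adjusted p-values of 0.0546 for Ccl20, 0.0599 for Cxcl1, 0.268 for Icam1 and 0.333 for Krt6a. Without castrated male replicate 2, Ccl20 was called (0.0283), and Cxcl1 (0.0560), Icam1 (0.171) and Krt6a (0.186) were not. Without female replicate 2, Cxcl1 (0.0463) and Krt6a (0.0300) were called, and Ccl20 (0.0565) and Icam1 (0.218) were not. Without female replicate 2, Ptgs2 (adjusted p = 0.0464) and Krt6a (adjusted p = 0.0334) were still called in females against males, while Cxcl1 (0.0633), Ccl20 (0.102), Icam1 (0.362) and Tslp (0.157) were not.

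**Figure D4:**
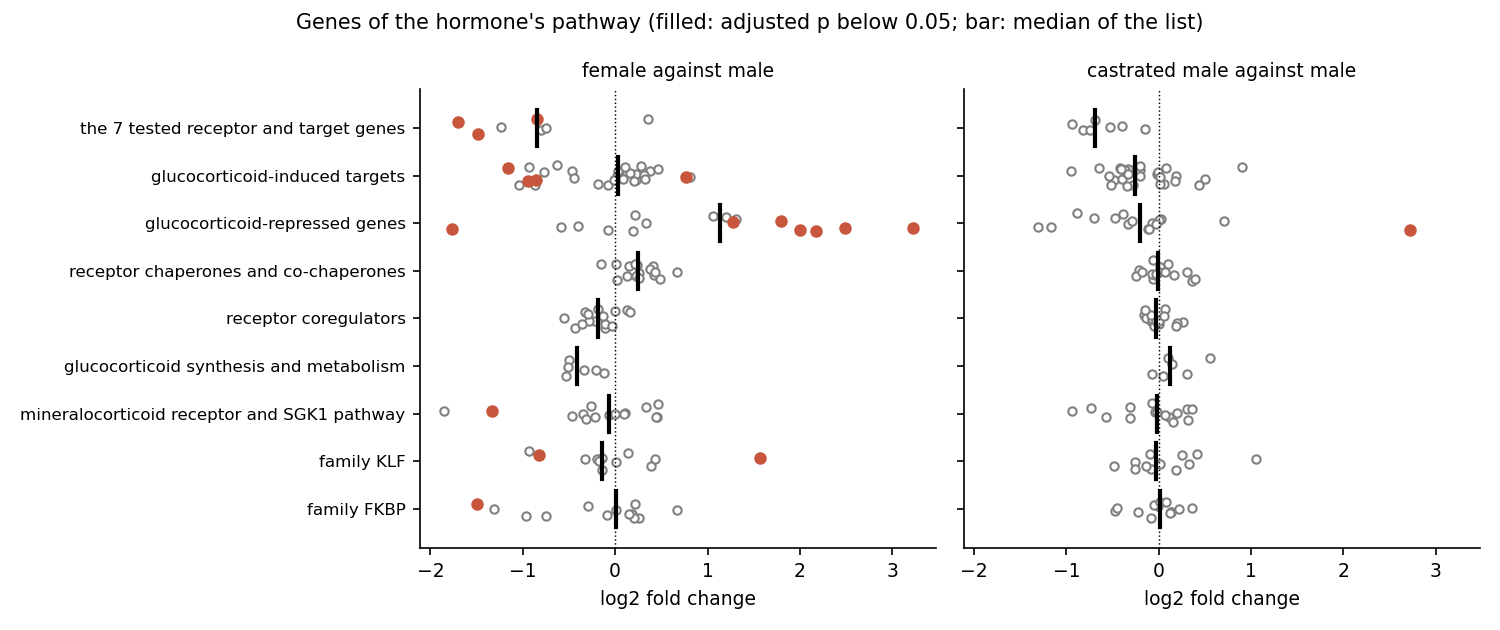
Log2 fold change (horizontal axis) of each tested gene of the set and of 8 related lists, in females and in castrated males against intact males; filled points have an adjusted p below 0.05 and black bars are list medians. The set has medians of -0.84 and -0.69, the induced genes 0.03 and -0.25, and the repressed genes 1.13 and -0.20, and the filled point at 2.72 on the right is Ptgs2.

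The machinery around the receptor showed no calls. None of 16 chaperones and co-chaperones passed the test in any comparison in limma, also with voom weights. In females against males 5 were higher at an unadjusted p below 0.05, with a median of 0.25. That level was reached by 3834 of all 15413 genes tested, in either direction. In castrated males against females 5 of the 16 were lower at that level, beside 3332 of all 15413 genes tested in either direction. The most abundant chaperone, Hsp90ab1, which holds the receptor in its hormone-binding form, was at 1051 and 1002 CPM in males, 1011 and 1288 in females and, in castrated males, 837 and 936. Hspa8, which loads clients onto it, was at 685 and 668 CPM in males and 810 and 1105 in females (0.48 ± 0.17, limma adjusted p = 0.116). None of 15 coregulators passed either, also with voom weights. In females against males their median was -0.18, and 1 was lower at an unadjusted p below 0.05, beside the same 3834 of 15413 genes tested. Crebbp, a histone acetyltransferase, was at 173 to 214 CPM and the remodeller Smarca4 at 178 to 217 CPM over the 6 libraries.

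Genes that make, convert or export the hormone were scarce. Of 17, 6 passed the filter and 0 were called in limma, also with voom weights. At an unadjusted p below 0.05, 1 was lower in females against males, beside 3834 of all 15413 genes tested in either direction. In castrated males against females 3 of the 6 were higher at that level, beside 3332 of all 15413 genes tested in either direction. Hsd11b2, Cyp11b2, Hsd3b1, Pomc, Crh and Mc2r had at most 3 reads in any library. The exporter gene Abcb1b was at 44.0 to 64.0 CPM over the 6 libraries. The steroid 5-alpha reductase gene Srd5a1 was at 30.7 and 36.5 CPM in males, 23.1 and 24.1 in females and, in castrated males, 32.0 and 40.2 (females against males -0.50 ± 0.17, limma adjusted p = 0.123).

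Among 15 tested genes of the mineralocorticoid receptor and SGK1 pathway, Scnn1g, the gamma subunit of the epithelial sodium channel, was the 1 gene called. The call was in females against males, where 6.10% of all genes tested were called. Scnn1g was at 16.7 and 18.2 CPM in males, 8.79 and 5.00 in females and, in castrated males, 12.4 and 10.8, with no overlap between the groups. Females against males gave -1.33 ± 0.27 (limma adjusted p = 0.0288), and the call was lost without female replicate 2 (-0.95, adjusted p = 0.179).

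Esr1, an estrogen receptor gene, was at 3.94 CPM in one male library and 34.1 in the other, a gap wider than any between groups, and was not called.

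The families of Fkbp5, Klf9 and Tsc22d3 held 1, 2 and 1 calls in females against males, where 6.10% of all genes tested were called. Fkbp11, a secretory pathway relative of Fkbp5, was at 20.9 and 21.1 CPM in males and 7.67 and 6.67 in females (-1.49 ± 0.19, limma adjusted p = 0.00712), 1 of 13 tested FKBP genes. Of 12 tested KLF genes, Klf4, a differentiation factor of the epidermis, fell from 183 and 163 to 115 and 81.9 CPM (-0.83 ± 0.17, adjusted p = 0.0273), and the low Klf12 rose (1.57 ± 0.38, adjusted p = 0.0483). Klf12 had 6 and 13 reads in the male libraries, and with voom weights 0 of the 12 were called higher in females. Both Fkbp11 (adjusted p = 0.0415) and Klf4 (adjusted p = 0.0459) were higher in castrated males than in females, but neither was called with voom weights (adjusted p = 0.0656 and 0.0640), without female replicate 2 (0.309 and 0.247), without castrated male replicate 1 (0.368 and 0.367) or without castrated male replicate 2 (0.214 and 0.266). Tsc22d4 fell from 225 and 192 CPM in males to 130 and 113 in females (-0.78 ± 0.13, adjusted p = 0.0177), the 1 call among 3 further TSC22 genes. Without female replicate 2, the calls of females against males were lost for Fkbp11 (adjusted p = 0.0765), Klf4 (0.147), Klf12 (0.307) and Tsc22d4 (0.132).

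Other gene groups moved with the same libraries, and their part in the results above was not tested. Clock genes follow the time of day, as does the hormone. In females against males 7 of 18 tested fell, where 2.39% of all genes tested were called lower. Among the 7 were Per1, Ciart, Cry2, Hlf, Bhlhe41 and Npas2. With voom weights 6 of the 18 were called lower. The summed level of the list was 2660 to 2738 CPM in males, 1479 to 1984 in females and 2457 to 2477 in castrated males. Of 17 genes of the immediate early response and of dissociation stress, 6 rose in females (Junb, Ier3, Egr1, Ier2, Hspe1 and Fos) and Hspa1b fell. Over all genes tested 3.70% were called higher and 2.39% lower. With voom weights 4 of the 17 were called higher and 1 lower. The sum of the 17 was 1209 to 1344 CPM in males, 1730 to 1881 in females and 1527 to 1788 in castrated males.

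The sorted cells carried the markers of their label. The summed level of 8 basal keratinocyte markers was 42540 to 48810 CPM in males, 41330 to 43500 in females and 45300 to 45530 in castrated males. In limma 0 were called in females against males, also with voom weights. At an unadjusted p below 0.05, 4 were lower, beside 3834 of all 15413 genes tested in either direction. Within the sum, the genes differed in direction. Lower in females were the means of Krt15 (12680 CPM in males, 7784 in females), Col17a1 (6109, 4156), Itgb4 (713, 523), Itgb1 (147, 112) and Itga6 (370.6, 343.5). Those of Krt5 (10730, 12270), Krt14 (13260, 15510) and Trp63 (1668, 1715) were higher. Of 8 Langerhans and dendritic cell markers, H2-Ab1, H2-Aa and Cd74 rose in females, and the sum was 380 to 427 CPM in males, 1090 to 2367 in females and 403 to 467 in castrated males. Cd74 alone, at 208 and 235 CPM in males and 603 and 1354 in females, made up most of it. Cd207 did not rise, with 6.60 and 8.46 CPM in males and 5.32 and 6.92 in females. Itgax was at 0.852 and 1.65 CPM in males and 1.13 and 1.15 in females. In limma 5 of the 8 were higher in females at an unadjusted p below 0.05 and 0 lower. Of 9 spinous and granular markers, Krt1, Krtdap and Flg rose and Dsg1a fell in females, with sums of 1719 to 2014 CPM in males, 1941 to 2164 in females and 2192 to 2380 in castrated males. Over all genes tested 3.70% were called higher in females and 2.39% lower. Follicle markers summed to 232 to 270 CPM in males, 198 to 216 in females and 132 to 163 in castrated males. Sebocyte markers summed to 632 to 927 CPM, T cell markers to 14.9 to 152 and melanocyte markers to 33.3 to 81.6 over the 6 libraries. Thy1, at 8.9 to 144 CPM, made up most of the T cell sum, and Cd3e was at 1.23 to 4.47. Krt79 (follicle) and Mgst1 (sebocyte) were called lower in castrated males than in females, beside 1.15% of all genes tested. In females against males Mitf (melanocyte) was called lower and Cxcr2 (neutrophil) higher. With voom weights only the melanocyte list kept its call. Fibroblast markers stayed under 27.0 CPM, and the mast cell genes Cpa3, Mcpt4, Cma1 and Fcer1a, the adipocyte gene Adipoq and the muscle genes Myh1 and Myh4 had no reads.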

How the data were processed

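PolyA RNA of sorted basal keratinocytes was measured in 6 libraries. The submitters' processing notes list STAR 2.7.5a, HTSeq 0.11.1, FastQC and Picard, and as builds mm10 and GRCm38. For annotation, strand setting and scaling the entry is: not given in the sources used here. Each deposited value is a score, reads per gene scaled by the authors to nearly the same total in each library and rounded, as the values show. The step of 1 read (2.07 to 2.38) was recovered from the low values, with at least 99.98% of values within rounding of a multiple, and dividing by it gave reads. The library named with the number 3 was taken as male replicate 2, after its title. Replicates differed beyond sampling noise (chi-square per degree of freedom 4.41 to 12.3).

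Reads were scaled with TMM factors (0.927 to 1.03) to CPM. Genes with 1.16 CPM in at least 2 libraries and 15 reads in total were tested with limma 3.58.1 under R 4.3.3 on log2(CPM + 0.5). The fit had a mean for each group, an intensity trend and 3 residual degrees of freedom. Fold changes on this scale understate those of low genes. P-values are two-sided and Benjamini-Hochberg adjusted over all genes tested, and measure the spread between pools. Step recovery and tests were checked on simulated data. Exon lengths are from GENCODE M21 (49326 of 49671 identifiers matched).

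The 8 genes and all lists were chosen with earlier results of these data known. The genes named are the 8, up to 4 genes called per list and comparison or else the 2 most abundant, and the 2 genes most like each member; other genes, such as those called beyond 4, the marker genes and genes without reads, are named from the counts of a list. Some genes of the lists are not reported here. A total of 14 alternatives were run: 2 other scalings, another pseudocount, no filter, 2 groups alone, no trend, voom weights, a replicate block, and each library left out.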

Additional observations from a re-analysis of the deposited data

How the results depend on the processing

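The number of genes called moved under several alternatives. Against 940 genes called in females against males, 103 were called without the filter on low values, 265 with those groups alone, 103 without the intensity trend, and 49 (without female replicate 2) to 1773 (without female replicate 1) with a library left out. Of the 7 genes, 0 in place of 3 were called without the filter, with those groups alone or without the trend, and 0 to 5 with a library left out. For castrated against intact males, where 6 genes were called, the count was 11 with a pseudocount of 2 CPM, 2 without the filter and 1 to 74 with a library left out, and 0 to 1 of the 7 genes were called then. For castrated males against females, where 266 were called, it was 33 without the filter, 560 with those groups alone, 59 without the trend, 88 with voom weights, 162 with the replicate block and 21 to 1323 with a library left out. Of the 7 genes, 2 were called with those groups alone and 0 to 3 with a library left out. The cause was not tested. Where a group was left with 1 library, that library was assumed to vary like the other groups.

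Signs turned in 3 fold changes that were not called: Sgk1 in females against males (-0.15 to 0.84 with a library left out), and Fkbp5 (-0.16 to 0.28; -0.16 without female replicate 2 and -0.14 without castrated male replicate 1) and Zbtb16 (-0.12 to 1.54) in castrated males against females. Nr3c2 was not called with voom weights (adjusted p = 0.0551). Of 29 other pathway genes called in females against males, 3 were still called without female replicate 2, 5 and 7 without castrated male replicate 1 and 2, and 26 without female replicate 1. Of 9 called in castrated males against females, 2 were still called with voom weights, 2 without female replicate 2, and 0 and 1 without castrated male replicate 1 and 2. The 2 other scalings and the pseudocount of 2 CPM kept the 3 calls among the 7 genes.

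Correlations of same-numbered deviations over the genes tested were -0.153, -0.01 and 0.194 between groups. With 2 libraries per group, these values cannot tell whether equal replicate numbers share a litter or batch. Nr3c2, Tsc22d3 and Fkbp5 were higher in replicate 1 than in replicate 2 in every group, and the other tested members were not. With the replicate block 817 genes were called in females against males and 5 in castrated against intact males, 4 of the 7 genes were called in the former, the fourth being Fkbp5 (adjusted p = 0.042), and 0 in the other comparisons.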
